A study of Homo sapiens with 8 samples.

Results

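The cells described here were radial glia from 2D cultures of the human embryonic stem cell line H1, chosen cell by cell with a marker rule. They are called non-cycling because the rule required 0 counts of MKI67 and TOP2A. A cell belonged if its name placed it in a 2D culture, if it held an expected count of 1 or more for at least 4 of PAX6, HES5, FABP7, SLC1A3, PTPRZ1, HOPX and SOX2, and if it held 0 for each of MKI67, TOP2A, STMN2, COL3A1, TTR, AQP4 and GFAP. The rule chose 283 of 21994 2D cells (1.29%), in a data set of 43693 cells and 60286 genes. The same markers applied to the 3D cultures chose 692 of 21699 cells (3.19%), which served as the comparison.

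Radial glia are the neural stem cells of the developing forebrain. Their bodies line the ventricle, a long process reaches the surface of the brain, and by dividing they give rise to neurons, to intermediate progenitors and later to astrocytes. PAX6 and SOX2 are transcription factors of these cells, HES5 is a Notch target that holds them undifferentiated, FABP7 binds fatty acids, SLC1A3 takes up glutamate, PTPRZ1 is a receptor phosphatase and HOPX marks the outer radial glia of the human cortex. Position in the forebrain is set by signals from organising centres. The cortical hem, at the medial edge of the cortex, sends out WNT, R-spondin and BMP proteins.

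The study grew neural cultures from H1 in 2D or 3D and profiled single cells with a split-pool barcoding kit from polyA RNA, and the series text names dopamine, cocaine and morphine as the treatments. The 8 deposited samples are sublibraries of 1 mixed pool, so culture and treatment were read from the 46 culture tags in the cell names. The 2D tags fell into 2DCocu (12 tags, 4 each of AcCoc, AcMor and Vehic), 2DMono (6 tags, 2 each of AcDop, AcMor and Vehic) and 3 groups named for a protocol, 2DProto2Fjo, 2DProto3Wu and 2DProto4Nic, with 2 tags each and no treatment in the name. The 3D tags used were 3DMono (6 tags with the same 3 treatments as 2DMono) and 3DFusi (10 tags of AcCoc, AcMor and Vehic). The others were 3DProto1For and 3DProto2Xia, with no treatment in the name. The labels define none of these abbreviations, all cultures come from 1 line, and nothing states whether tags with the same name and another number were separate cultures. The p-values below therefore measure only the spread between tags, which may be technical.

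Depth differed between the chosen cells and the rest in opposite directions by arrangement, with medians of 14995 against 22291 counts in 2DProto4Nic and 17517 against 13207 in 2DMono. Over all 2D cells the median was 14431 counts (range 4010 to 67402) and 4887 detected genes in the radial glia, against 12996 counts and 4601 genes in the other 2D cells. Each of the 24 2D tags held at least 1 radial glial cell, 18 held at least 5 and 4 held at least 20. A simulation-based caller marked 3 of the 283 cells (1.06%) as doublets, and 2 of the 283 shared a barcode with each other across sublibraries. Levels are given as CPM, a gene's counts in the summed cells of a tag scaled so that all genes of the tag sum to 1000000. CPM does not correct for gene length, so levels are compared between samples and not between genes. Log2 differences of genes and their adjusted p-values come from edgeR (quasi-likelihood, tag sums, Benjamini-Hochberg over all genes tested).

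Most 2D cells with the positive markers were removed by the genes required to be 0. Of 2045 2D cells with at least 4 of the 7 markers, 13.8% were kept. MKI67 and TOP2A, genes of dividing cells, were present in 45.1% and 42.6% of the 2045, and GFAP, the intermediate filament of astrocytes and late radial glia, in 38.3%. GFAP alone removed 270 cells, COL3A1 alone 96 and STMN2 alone 86. The share with GFAP was 56.1% in 2DCocu, 51.2% in 2DMono, 22.0% in 2DProto2Fjo and 9.65% in 2DProto4Nic. The rule kept 12.6%, 8.32%, 19.4% and 18.2% of the marker-positive cells of these arrangements, which also differed in other genes required to be 0, such as MKI67 (31.8% in 2DCocu and 60.9% in 2DProto4Nic). Among those chosen, PTPRZ1 was present in 99.6%, SLC1A3 in 95.8%, PAX6 in 92.6%, FABP7 in 76.3%, HOPX in 36.4%, HES5 in 12.7% and SOX2 in 3.18%.

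Radial glial genes that the rule did not use were higher in the chosen cells than in the other 2D cells, which is a description since the same cells were selected by related genes. Over all 2D cells, VIM, the filament protein of the radial process, stood at 275 against 167 CPM and NES (nestin) at 144 against 92.0 CPM. SOX9, a glial transcription factor, was at 19.6 against 6.17 CPM. GLI3, the transcription factor that represses hedgehog targets in the dorsal forebrain, was at 1120 against 297 CPM. All 16 genes of a radial glial list outside the rule were higher in the chosen cells, with a sum of 2860 against 1550 CPM when the other cells were weighted to the same tags. Of 11 neuronal genes 1 was higher (summed 2080 against 2890 CPM), and of 10 mesenchymal genes 0 were (225 against 1040 CPM). The neuronal gene was MAP2 (1340 against 1230 CPM), which made up most of that sum. Sums of this list given below thus say little on its other genes. Of 18 astrocyte genes outside the rule 11 were higher (4840 against 4590 CPM). Of 20 cell cycle genes outside the rule 8 were higher (333 against 539 CPM). In the same weighting the DNA replication genes MCM2 (16.1 against 6.83 CPM) and MCM5 (21.7 against 8.87 CPM) were higher. CENPF (27.3 against 152 CPM) and CDK1 (3.43 against 13.7 CPM) were lower. Low levels thus did not extend to all cell cycle genes.

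Among genes with 50 CPM or more, those highest relative to the other cells of the same tags included LRRC3B (443 against 101 CPM), ID4 (87.9 against 28.1 CPM), an inhibitor of neurogenic helix-loop-helix factors, GLI3 (1130 against 373 CPM in this weighting), the phagocytic receptor gene MEGF10 (266 against 89.9 CPM), the BMP receptor gene BMPR1B (375 against 130 CPM) and DACH1 (1420 against 499 CPM). Of 19 hindbrain and spinal cord genes 15 were at 0 in the summed cells (list sum 4.40 against 9.09 CPM in the other cells). Of 16 genes of the ventral telencephalon 8 were at 0, among them NKX2-1, GSX2 and DLX2 (list sum 95.9 against 113 CPM). The choroid plexus list had 1 of 8 genes at 0, FOLR1 (list sum 136 against 321 CPM). The pluripotent list had 3 of 8, among them POU5F1, with LIN28B at 33.3 CPM (list sum 47.5 against 78.3 CPM). A floor of 3 counts over the chosen cells is 0.621 CPM. In the other cells NKX2-1 (0.081 CPM), GSX2 (0.00237 CPM), FOLR1 (0.148 CPM) and the 15 hindbrain and spinal cord genes (at most 0.577 CPM) lay below it too. Their 0 thus does not set the chosen cells apart.

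Of the chosen cells 238 held exactly 4 of the markers, 44 held 5, 0 held 6 and 1 held 7, and 704 further 2D cells met the other conditions with exactly 3. At 3, 4 and 5 or more markers GLI3 was at 627, 978 and 1850 CPM and SOX9 at 10.8, 19.7 and 18.9 CPM. VIM (252, 293 and 175 CPM), NES (157, 151 and 108 CPM) and HES1 (38.6, 49.4 and 25.0 CPM) were lowest at 5 or more, and DCX (92.2, 109 and 166 CPM) was highest there. COL1A1, a fibrillar collagen gene of connective tissue, was at 360, 198 and 45.4 CPM. Median depth was 12205, 14186 and 15128 counts. The mix of arrangements differed too, with 2DProto4Nic giving 96 of 704, 45 of 238 and 23 of 45 cells and 2DMono 121, 51 and 2, and its part in these levels was not tested.

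The share of cells that met the rule differed widely between arrangements. It was 0.707% ± 0.307 (SD, n = 12 tags) in 2DCocu and 1.16% ± 0.653 (SD, n = 6) in 2DMono. The tags of 2DProto2Fjo stood at 3.46% and 3.10%, those of 2DProto4Nic at 2.49% and 3.81% and those of 2DProto3Wu at 0.216% and 0.446%. The 4 tags of 2DProto2Fjo and 2DProto4Nic were above each of the 18 tags of 2DCocu and 2DMono, whose highest was 2.21%. With cells thinned to 5000 counts these groups overlapped, with 2DProto2Fjo1 at 1.62% and 2DMonoVehic2 at 1.67%. They overlapped too in the share with at least 4 markers before the genes required to be 0 were applied, at 15.7% to 19.9% against up to 19.6%. In 3DMono the share was 5.42% ± 1.75 (SD, n = 6), from 3.79% to 7.45%.

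**Figure D1:**
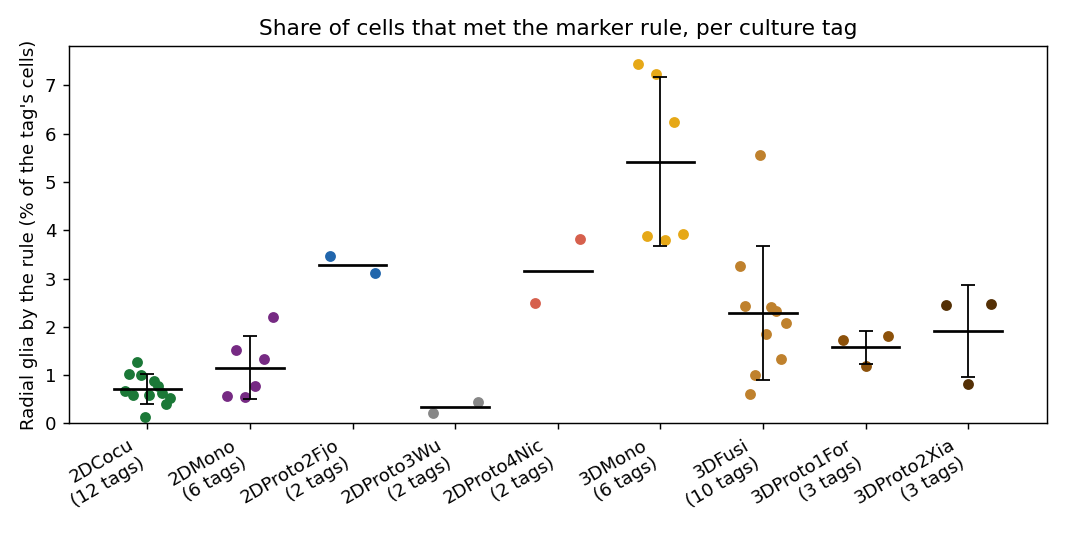
Share of each culture tag's cells that met the marker rule for non-cycling radial glia, in percent, by arrangement, with 1 point per tag and a short line at the mean of the arrangement. The 6 3DMono tags (3.79% to 7.45%) lie above the 6 2DMono tags (0.541% to 2.21%), and the 2DProto3Wu tags lie at 0.216% and 0.446%.

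Cells that met the whole rule made up a smaller share of 2DMono than of 3DMono. The difference was -4.26 percentage points (1.16% ± 0.653 against 5.42% ± 1.75, n = 6 tags each), the groups did not overlap, and the direction was the same in all 3 treatments. A two-sided exact permutation test within treatment gave p = 0.00926, the smallest it can give here, and 0.037 after Benjamini-Hochberg adjustment over the 4 share tests. With every cell thinned to 5000 counts the difference was -3.26 points, and with at least 5 markers it was -1.83 points. Before the genes required to be 0 were applied, cells with at least 4 markers made up 11.5% of 2DMono (6.23% to 19.6% by tag) and 17.7% of 3DMono (10.8% to 23.7%), with overlap and no test. The 2 arrangements were apart in every tag once those genes were applied. Without any 1 of 2DMonoAcDop1, 2DMonoAcDop2, 2DMonoAcMor1, 2DMonoAcMor2 and 2DMonoVehic1 the adjusted p was 0.0741, at differences of -4.42 to -4.11 points. With the replicate number as a block the adjusted p was 0.107. The 3DMono tags numbered 1 stood at 6.24% to 7.45% and those numbered 2 at 3.79% to 3.92%.

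The remaining share tests did not pass. AcMor and Vehic tags of 2DCocu stood at 0.617% ± 0.277 (SD, n = 8) and those of 2DMono at 1.21% ± 0.740 (SD, n = 4), a difference of -0.597 points (two-sided exact permutation test within treatment, p = 0.0533, adjusted 0.107). This difference was -0.202 points with cells thinned, -0.206 at 3 markers or more and -0.0509 at 5. In 2DCocu the AcCoc tags stood at 0.887% ± 0.32 and the Vehic tags at 0.581% ± 0.161 (n = 4 each, exact permutation adjusted p = 0.229), with ranges that overlap, and the difference changed sign at 3 markers or more, at 5 and with cells thinned. The AcMor tags, compared with the same Vehic tags, stood at 0.652% ± 0.386 (n = 4, exact permutation adjusted p = 0.771).

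Radial glia of 2 of the 2D protocols differed in regional signalling genes. In 2DProto4Nic (68 cells) against 2DProto2Fjo (80 cells), with 2 tags each, 922 of 9429 genes passed at an adjusted p of 0.05 (9.78%). Of these 487 were higher in 2DProto4Nic (5.16%) and 435 lower (4.61%). Of 12 genes of the cortical hem and antihem, 9 were tested, 7 were lower in 2DProto4Nic and 0 higher, with a median log2 difference of -4.43 beside -0.00 over all genes tested. RSPO2, RSPO1 and RSPO3 encode R-spondins, secreted proteins that raise WNT signalling, and WNT8B, WNT5A and BMP6 are ligands of the hem.

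RSPO2 was at 2.28 and 30.7 CPM in the 2DProto4Nic tags and at 1370 and 1260 CPM in the 2DProto2Fjo tags. The groups lay far apart (log2 -5.64, SE 0.38, adjusted p = 8.26e-08). LMX1A, the transcription factor of the roof plate and hem, was at 4.82 and 4.28 CPM against 198 and 200 CPM (log2 -5.31, SE 0.47, adjusted p = 1.41e-06). LMX1A lies at chr1:165201867-165356715 on the minus strand (hg38, GENCODE v29). WNT8B (chr10:100463041-100483744, plus strand) was at 0 in both 2DProto4Nic tags and at 67.5 and 110 CPM in 2DProto2Fjo, which is at least 33.3-fold lower against a floor of 3 counts over the group (adjusted p = 5.98e-05).

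The other R-spondins and ligands were low in the same tags. RSPO1 was at 0 and 1.60 CPM in 2DProto4Nic against 42.8 and 46.5 CPM (log2 -4.43, SE 0.76, adjusted p = 0.00118). RSPO3 was at 0 and 0.901 CPM against 17.9 and 92.7 CPM (adjusted p = 0.00448), and without 2DProto2Fjo2 its adjusted p was 0.2. WNT5A was at 9.58 and 6.41 against 59.9 and 59.2 CPM (adjusted p = 0.00254, and 0.0552 without 2DProto4Nic2). BMP6 was at 0 and 3.21 against 29.9 and 16.7 CPM (adjusted p = 0.0337, between 0.0327 and 0.0889 under the alternatives, 3 of which lost the call).

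Hem genes varied between tags of the arrangements outside that pair. RSPO2 over tags with at least 5 radial glia was 371 ± 328 CPM in 2DCocu (SD, n = 8, from 54.0 to 1100), 812 ± 403 CPM in 2DMono (n = 5, from 264 to 1320) and 119 ± 150 CPM in 3DMono (n = 6, from 1.2 to 402). LMX1A was 205 ± 190 CPM in 2DCocu, 248 ± 139 CPM in 2DMono and 39.4 ± 43.0 CPM in 3DMono. RSPO2 did not pass between 2DMono and 3DMono (log2 3.14, SE 1.02, adjusted p = 0.0647), and 0 of 8 hem genes tested were called between 2DCocu and 2DMono. Neither 2DCocu and 2DMono nor 2DMono and 2DProto2Fjo were separated by RSPO2, since their ranges overlapped. The 2DProto4Nic tags lay below each 2DCocu and 2DMono tag with at least 5 radial glia. A floor of 3 counts in such 2DCocu tags is 16.6 to 56.5 CPM, so their lowest value of 54.0 CPM may rest on few counts. In the 8 cells of 2DProto3Wu, RSPO2 was at 0, where a floor of 3 counts is 20.5 CPM. RSPO2 counts were found in 61.3% of the 2DProto2Fjo radial glia, 66.0% of 2DMono, 36.5% of 2DCocu and 10.3% of 2DProto4Nic, and with cells thinned to 5000 counts in 57.5% of 2DProto2Fjo, 26 of 52 cells of 2DMono, 33.3% of 2DCocu and 5.97% of 2DProto4Nic. In the other cells of 2DProto4Nic it was found in 30.7%, above the share in that protocol's radial glia, at a CPM of 213 against 559 in the other cells of 2DProto2Fjo.

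**Figure D2:**
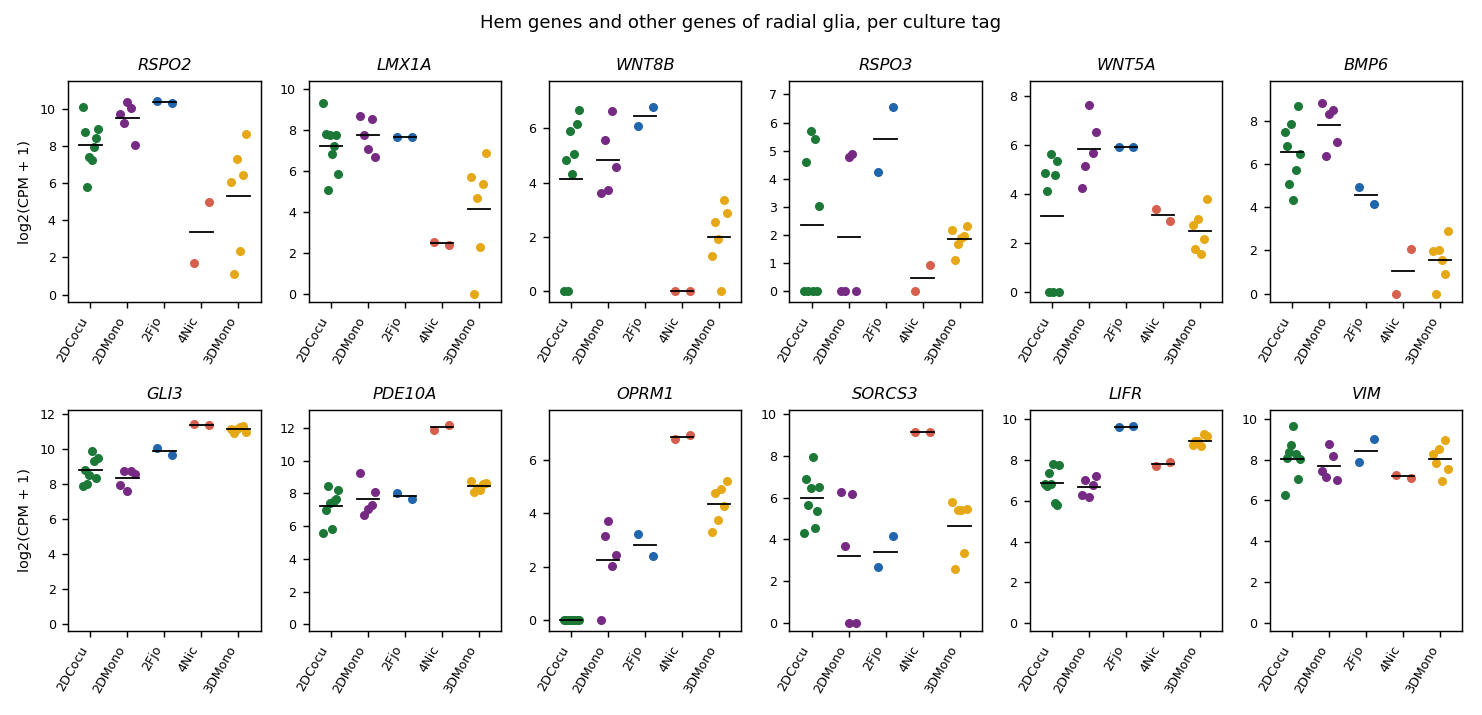
Levels of regional and signalling genes in radial glia per culture tag, on an axis of log2(CPM + 1), by arrangement, with 1 point per tag and a short line at the mean of these log values. RSPO2 and LMX1A are low in both 2DProto4Nic tags (4Nic) and high in both 2DProto2Fjo tags (2Fjo), and OPRM1 and PDE10A have the opposite order.

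WNT ligands and receptors outside the hem list moved in both directions. Of 20 WNT pathway genes, 12 were tested, 2 were higher and 3 lower in 2DProto4Nic, with a median log2 difference of -0.12. The ligand gene WNT7B was at 4.79 and 5.47 CPM in 2DProto4Nic against 91.1 and 64.0 CPM (log2 -3.70, SE 0.55, adjusted p = 0.000369). TCF7L1, a repressor of WNT targets, was at 467 and 484 CPM against 127 and 138 CPM (log2 1.99, SE 0.22, adjusted p = 1.53e-05). The receptor gene FZD8 was at 23.9 and 31.5 against 3.89 and 4.55 CPM (adjusted p = 0.00935, and up to 0.0782 under the alternatives).

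Other large falls in 2DProto4Nic were in PRTG and MECOM. PRTG, a surface protein of early neuroepithelium, was at 0 and 17.1 CPM against 702 and 837 CPM (log2 -5.69, SE 0.38, adjusted p = 6.05e-08). MECOM, a zinc finger transcription factor, was at 2.83 and 3.46 against 145 and 200 CPM (log2 -5.41, SE 0.53, adjusted p = 5.15e-06). PTCHD1, FAP and HTRA1 were at 0 in both 2DProto4Nic tags and at least 20.9-fold, 17.3-fold and 12-fold lower. LIFR, the receptor for leukaemia inhibitory factor and a gene of outer radial glia, was at 211 and 237 CPM against 778 and 816 CPM (log2 -1.67, SE 0.20, adjusted p = 5.22e-05).

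GLI3 was higher in 2DProto4Nic, at 2800 and 2620 CPM against 1070 and 813 CPM (log2 1.68, SE 0.19, adjusted p = 2.34e-05). It lies at chr7:41960950-42237870 on the minus strand and was the single hedgehog gene called of 8 tested. GLI3 was 495 ± 255 CPM in 2DCocu (SD, n = 8, from 235 to 953), 336 ± 110 CPM in 2DMono (n = 5) and 2260 ± 234 CPM in 3DMono (n = 6, from 1950 to 2540). The 2DProto4Nic tags were thus above all 3DMono tags, and all other 2D tags with at least 5 radial glia in 2DCocu, 2DMono and 2DProto2Fjo were below them. In the other cells of the protocols GLI3 was at 725 CPM in 2DProto4Nic and 373 CPM in 2DProto2Fjo.

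SORCS3 and SMOC2 had the largest rises in 2DProto4Nic among genes with groups that did not overlap and at least 20 CPM. With 2 tags each, groups did not overlap in 4883 of the 9429 genes tested (51.8%), so lack of overlap alone sets few genes apart here. SORCS3, a sorting receptor, was at 560 and 566 CPM against 5.31 and 17 CPM (log2 5.86, SE 0.35, adjusted p = 2.59e-08). The matrix protein gene SMOC2 was at 379 and 236 against 6.49 and 7.59 CPM (log2 5.52, SE 0.41, adjusted p = 2.08e-07). PDE10A, a phosphodiesterase that degrades cyclic nucleotides (chr6:165327287-165988078, minus strand), was at 3780 and 4610 CPM against 259 and 204 CPM (log2 4.33, SE 0.22, adjusted p = 5.87e-09). In the other cells of the protocols PDE10A was at 3610 against 307 CPM, so a gap of this kind was not limited to radial glia. The cAMP phosphodiesterase gene PDE3A (935 and 1060 against 57.7 and 52.2 CPM), the potassium channel gene KCNQ3 (960 and 614 against 48.0 and 37.6 CPM) and the vesicle protein gene SV2C (309 and 303 against 9.97 and 20.9 CPM) had log2 differences of 4.34, 4.31 and 4.43.

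OPRM1, the gene of the mu opioid receptor at which morphine acts, was called in the same comparison. It was at 107 and 119 CPM in 2DProto4Nic and at 8.31 and 4.30 CPM in 2DProto2Fjo, without overlap (log2 4.29, SE 0.47, adjusted p = 1.38e-05, and at most 1.42e-05 under 9 alternatives). Counts for OPRM1 were found in 33 of 68 radial glia of 2DProto4Nic (48.5%), 7.50% of 2DProto2Fjo, 7.55% of 2DMono, 11.3% of 3DMono and 0 of 74 of 2DCocu, which allows a share of up to 4.05% of cells with a count at this depth. Thinned to 5000 counts a cell, the shares were 29.9% in 2DProto4Nic, 1.25% in 2DProto2Fjo, 1.92% in 2DMono and 5.70% in 3DMono. In the other cells of 2DProto4Nic OPRM1 was found in 12.9% (5.80% thinned) at 13.6 CPM, and in those of 2DProto2Fjo in 17.3% (7.67% thinned), the opposite order to the radial glia. In the treated 2D arrangements OPRM1 was thus at 0 in all 2DCocu tags and at 5.51 ± 4.68 CPM over the 5 2DMono tags with at least 5 radial glia. Over all their radial glia 2DMono stood at 3.54 CPM, and a floor of 3 counts over 2DCocu is 3.07 CPM, so a difference between them was not detectable at this depth.

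OPRM1 (chr6:154010496-154246867, plus strand) overlaps IPCEF1 on the opposite strand, and since the strand use of the counting is not given in the sources used here, reads of the overlap cannot be told apart. IPCEF1 itself was at 61.7 and 17.6 CPM against 3.31 and 5.61 CPM (log2 2.83, SE 0.77, adjusted p = 0.0269, and 2 of 9 alternatives lost the call). Of 19 dopamine and opioid receptor and handling genes, 2 had enough counts to be tested in this comparison, and OPRM1 was the 1 called.

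The glial glutamate genes SLC1A2 and GLUL were higher in 2DProto4Nic. SLC1A2, the main astrocytic glutamate transporter, was at 369 and 349 CPM in 2DProto4Nic against 73.6 and 53.4 CPM (log2 2.63, SE 0.26, adjusted p = 4.92e-06). GLUL, which makes glutamine from glutamate, was at 168 and 129 against 45.1 and 47.1 CPM (log2 1.79, SE 0.33, adjusted p = 0.00213). Of 15 genes of glutamate, GABA and glycine handling 9 were tested, these 2 were higher and GABBR2 and GRIA1 lower, with a median of -0.66. Of 18 astrocyte genes 9 were tested, 4 were higher (BMPR1B, NFIA, NFIB, SLC1A2) and 2 lower (CD44, SPARCL1), with a median of 0.72. DCX, a microtubule protein of migrating neurons, was at 230 and 261 against 55.2 and 126 CPM (adjusted p = 0.00552, and 0.0574 without 2DProto2Fjo1) and was the 1 neuronal gene called of 7 tested. The 11 neuronal genes summed to 2370 and 2480 CPM in 2DProto4Nic and 2230 and 2290 CPM in 2DProto2Fjo.

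Matrix genes were also split between these protocols. Of 32 genes 27 were tested, COL4A5, COL4A6 and NCAN were higher in 2DProto4Nic and CD44, LAMA1, LAMA4 and LAMB1 lower, with a median of 0.04. COL4A5 was at 2080 and 1540 CPM against 833 and 879 CPM (log2 1.22, SE 0.20, adjusted p = 0.000812), and COL4A6 at 1230 and 1100 against 583 and 530 CPM (log2 1.21, SE 0.19, adjusted p = 0.000509). NCAN lost its call in 6 of 9 alternatives, CD44 in 3 of 9 (adjusted p up to 0.16) and LAMB1 in 2 of 9 (0.619 with DESeq2). Of 13 genes of the integrated stress response 6 were tested, and PSAT1, SESN2 and the cystine transporter gene SLC7A11 were lower, with a median of -1.47. SLC7A11 had an adjusted p of 0.0236, and of 0.402 without 2DProto2Fjo1.

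Of 16 radial glial genes outside the rule 13 were tested between the protocols, GLI3 was higher and VIM lower, with a median of -0.06, beside 9.78% called over all genes. NES was at 125 and 85.5 CPM against 106 and 132 CPM (log2 -0.11, SE 0.32, adjusted p = 0.888), and SOX9 (log2 -0.02, SE 0.50, adjusted p = 0.991), HES1 (log2 -0.03, SE 0.56, adjusted p = 0.983) and the dorsal telencephalic factor LHX2 (log2 0.43, SE 0.30, adjusted p = 0.46) did not pass. VIM was at 148 and 138 against 235 and 509 CPM (log2 -1.25, SE 0.33, adjusted p = 0.0215), but without 2DProto2Fjo2 its adjusted p was 0.541. The outer radial glial genes were mixed, with 9 of 10 tested, MOXD1 higher, FAM107A and LIFR lower and a median of 0.11. MOXD1, an oxidase-like protein gene, lost its call in 3 of 9 alternatives and FAM107A in 3 of 8. The median share of mitochondrial counts was 6.61% in the radial glia of 2DProto4Nic and 3.36% in those of 2DProto2Fjo, and its part in these differences was not tested.

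Radial glia of 2DMono differed from those of 3DMono in matrix and hem genes. With the minimum of 20 cells a tag fixed for the test, 1 2DMono tag (2DMonoVehic1, 26 cells) and 6 3DMono tags (390 cells) entered the fit. Treatment was a term in the model, so the difference came from 2DMonoVehic1 against 3DMonoVehic1 and 3DMonoVehic2. The AcDop and AcMor tags of 3DMono added to the estimate of spread and not to the difference. The lone tag was assumed to vary like the 3DMono tags, and 1164 of 11044 genes passed (10.5%), 677 higher (6.13%) and 487 lower (4.41%). With tags of at least 5 cells, 5 2DMono tags entered and 2013 of 8689 genes passed (23.2%), 1110 higher (12.8%) and 903 lower (10.4%). Without 3DMonoVehic1 the 20-cell fit gave 656. Values below are from the wider fit unless the 20-cell fit is named. Each gene given below with a log2 value for this comparison was called in both. The fits share 2DMonoVehic1 and the 3DMono tags, so they are not independent.

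Of 32 genes of extracellular matrix and adhesion 28 were tested, 19 were higher in 2DMono and 3 lower, with a median log2 difference of 1.72 beside -0.08 over all genes (17 higher and 3 lower in the 20-cell fit). COL4A1, a collagen of basement membranes, was at 294 to 1100 CPM in the 5 2DMono tags and 21.5 to 53.9 CPM in the 6 3DMono tags (log2 3.90, SE 0.33, adjusted p = 1.52e-07). CD44, the hyaluronan receptor, was at 80.9 to 828 CPM against 0 to 12.2 CPM (log2 5.46, SE 0.67, adjusted p = 0.000217), and the gap junction gene GJA1 at 22.8 to 334 against 2.41 to 22.2 CPM (log2 4.27, SE 0.66, adjusted p = 0.000644). COL1A1 was at 363 to 1260 CPM against 4.78 to 34.9 CPM (log2 5.80, SE 0.55, adjusted p = 2.29e-05). The 3 lower matrix genes were NCAN, TNC and VCAN, whose products are components of brain matrix. NCAN (neurocan) was at 11.1 to 24.4 CPM in 2DMono and 136 to 368 CPM in 3DMono (log2 -3.64, SE 0.32, adjusted p = 1.14e-08). CD44 and GJA1 are also on the astrocyte list. Of that list SPARCL1 (log2 2.41, SE 0.61), NFIX (log2 2.34, SE 0.24) and NFIA (log2 1.13, SE 0.18) were higher in 2DMono too. In the wider fit BMPR1B was higher and FGFR3 lower, while NFIB and SLC1A2 did not pass.

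Markers of mesenchymal cells were also measured, with COL1A1 in both this list and the matrix list. Of 10 such genes 4 were tested and 3 were higher in 2DMono (COL1A1, FOXC1 and PRRX1), with a median of 2.83. Their summed level was 455 to 1380 CPM in the 2DMono tags and 34.6 to 95.5 CPM in the 3DMono tags, most of it COL1A1 in 2DMono, with COL6A3 and POSTN at 0 in all 5 2DMono tags and COL3A1 at 0 by the rule. Their part in the matrix result was not tested. The median share of mitochondrial counts was 4.60% in 2DMono and 1.79% in 3DMono radial glia, at median depths of 17517 and 13595 counts, and was not tested either.

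PALLD, CCN2 and ANXA2 were higher in 2DMono. PALLD (palladin), an actin-bundling protein gene, was at 4300, 2440, 4270, 2810 and 2690 CPM in the 2DMono tags and between 304 and 452 CPM in the 3DMono tags (log2 3.32, SE 0.21, adjusted p = 1.03e-10). CCN2, a target of YAP, was called with an adjusted p of 0.00197 (log2 7.94, SE 1.27), and ANXA2 with 6.86e-09 (log2 5.94, SE 0.48). Of 10 genes of truncated or ventricular radial glia, 7 were tested, ANXA1, CCN2, CRYAB, FBXO32 and PALLD were higher and PDGFD was lower, with a median of 3.32. SPRY4, a feedback inhibitor of FGF signalling, was higher (log2 4.48, SE 0.46, adjusted p = 2.60e-07), and so was SMAD7, a feedback inhibitor of TGF beta signalling (log2 2.02, SE 0.51, adjusted p = 0.00475).

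Of 12 hem genes 8 were tested between 2DMono and 3DMono, BMP6, BMP7, LMX1A, WNT5A and WNT8B were higher and 0 lower, with a median of 3.08. RSPO2, RSPO3 and WNT2B did not pass. In the 20-cell fit 5 of 9 were higher, and LMX1A had an adjusted p of 0.424. BMP6 was at 443, 80.9, 311, 364 and 129 CPM in the 2DMono tags and at no more than 6.34 CPM in any 3DMono tag (log2 6.77, SE 0.54, adjusted p = 5.68e-07). Summed, the 12 hem genes stood at 848 to 2510 CPM in 2DMono and 229 to 764 CPM in 3DMono, without overlap. Of 16 radial glial genes outside the rule 12 were tested, CDH2, HES1, NES and PROM1 were higher and GLI3, ID4, NR2E1 and TTYH1 lower, with a median of -0.98. NES was higher in 2DMono (log2 1.47, SE 0.34, adjusted p = 0.00295), although its tags overlapped at 80.9 to 242 against 29.3 to 89.3 CPM. HES1, a target of Notch and BMP signalling, was higher too (log2 1.46, SE 0.45, adjusted p = 0.0187). In the 20-cell fit HES1 had an adjusted p of 0.0213, which was 0.194 with DESeq2 and 0.121 without 3DMonoVehic2.

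In the wider fit genes of the Notch, BMP, FGF and WNT pathways were called in both directions, beside 12.8% of all genes higher and 10.4% lower. Of 11 Notch genes tested, HES1, JAG1, LFNG and MAML2 were higher in 2DMono and NOTCH2 lower, with a median of 0.06. Of 12 BMP and TGF beta genes tested 6 were higher (BMP7, BMPR1B, SMAD6, SMAD7, TGFB2 and TGFBR1) and ID4 was lower, with a median of 0.45. Of 14 FGF and EGF genes tested, DUSP6, EGFR, SPRY1, SPRY2 and SPRY4 were higher, most of them feedback inhibitors, and ETV1, FGFR2 and FGFR3 were lower, with a median of 0.28. Of 12 WNT pathway genes 4 were higher, among them the target genes AXIN2 and NKD1, and 4 lower, among them SFRP1 and WNT5B, with a median of -0.01. In the 20-cell fit these lists held fewer calls, with 2 Notch genes, 4 BMP and TGF beta genes, 1 FGF and EGF gene and 3 WNT pathway genes higher, and 0, 0, 2 and 1 lower.

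**Figure D3:**
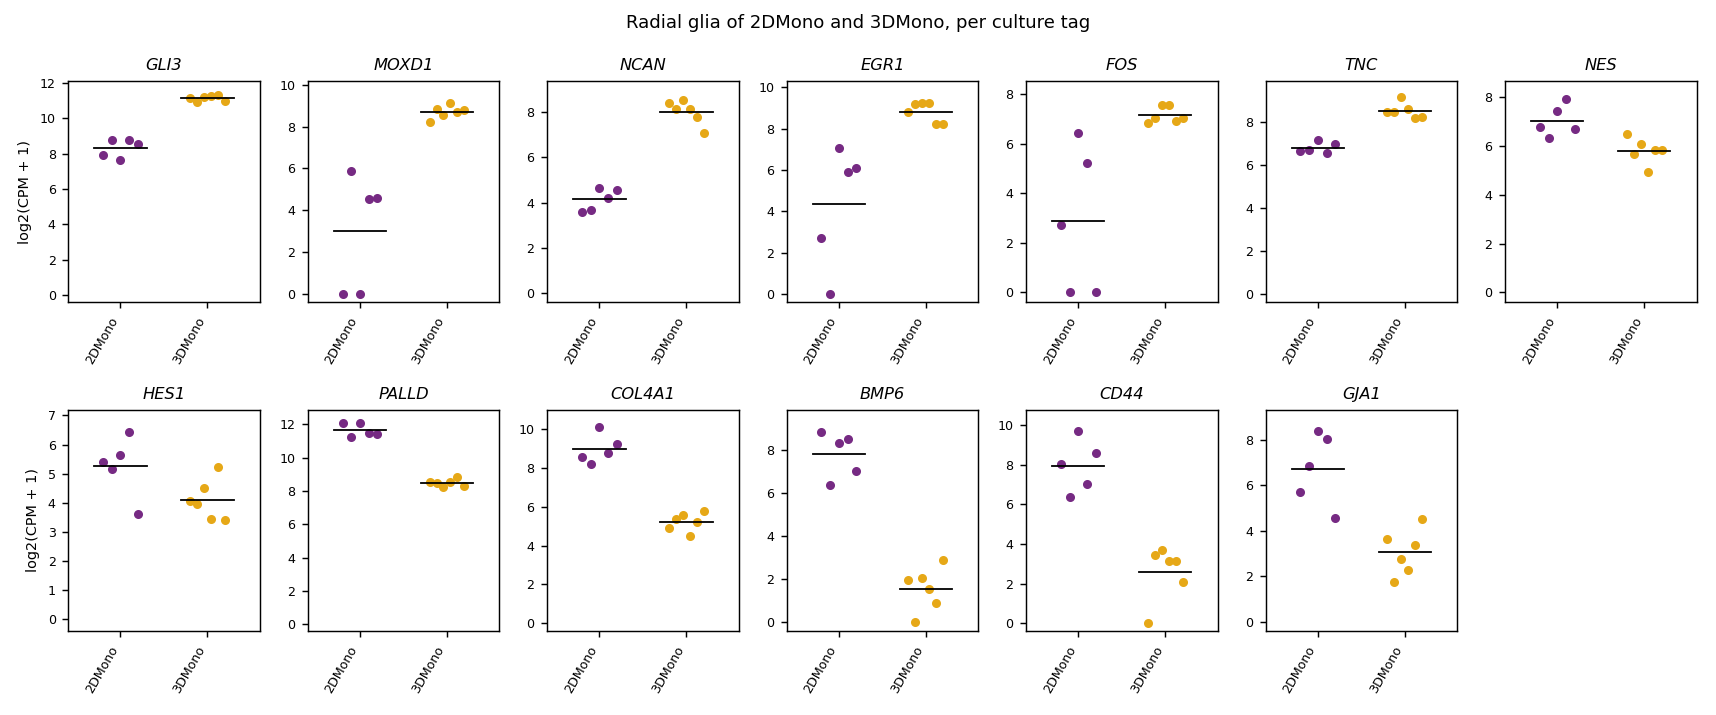
Levels in radial glia of 2DMono and 3DMono per culture tag with at least 5 such cells, on an axis of log2(CPM + 1), with 1 point per tag and a short line at the mean of these log values. PALLD, COL4A1 and BMP6 lie higher in all 5 2DMono tags, and GLI3, NCAN and MOXD1 lie higher in all 6 3DMono tags.

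GLI3 was lower in 2DMono, at 243, 438, 195, 428 and 376 CPM against 2250, 1950, 2310, 2480, 2540 and 2040 CPM (log2 -2.67, SE 0.22, adjusted p = 4.97e-09). No 2DMono tag came near the lowest 3DMono tag. Summed, the 11 neuronal genes stood at 1120 to 2820 CPM in 2DMono and 1510 to 2180 CPM in 3DMono, with overlap, and 2 of 9 tested were lower in 2DMono (ELAVL3 and STMN4) and 0 higher, with a median of -0.51.

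HOPX, a marker of outer radial glia, counted towards the rule. It was present in 9 of 53 chosen cells of 2DMono and in 324 of 692 chosen 3D cells. Its share in 3DMono alone is not given here. The part of this difference in rule markers in the levels below was not tested. Outer radial glial genes were mostly lower in 2DMono. All 10 were tested, ACSBG1, FAM107A, LIFR, MOXD1, PEA15 and TNC were lower and ITGB5 higher, with a median of -1.43 (LIFR, MOXD1 and TNC lower and CLU and ITGB5 higher in the 20-cell fit). MOXD1 (chr6:132296055-132401545, minus strand) was at 0, 57.8, 0, 22.1 and 22.8 CPM against 301 to 557 CPM (log2 -4.31, SE 0.39, adjusted p = 7.02e-08). TNC, tenascin C of the outer radial glial niche, was at 93.4 to 141 against 292 to 585 CPM (log2 -1.62, SE 0.22, adjusted p = 7.83e-06). In the 20-cell fit TNC had an adjusted p of 0.0115, and without 3DMonoVehic1 or 3DMonoVehic2 it lost its call (up to 0.0715).

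Part of the immediate early and cholesterol genes were lower in 2DMono. Of 20 immediate early genes 8 were tested, EGR1, FOS, IER2 and JUN were lower and FOSL2 higher, with a median of -1.14 (3 of 11 lower and FOSL2 higher in the 20-cell fit). EGR1 (chr5:138465490-138469315, plus strand), a growth factor response gene, was at 5.53, 0, 134, 58.4 and 68.3 CPM against 296 to 605 CPM (log2 -2.95, SE 0.53, adjusted p = 0.00188). All 16 genes of cholesterol synthesis were tested and 8 were lower, with a median of -0.85, but in the 20-cell fit HMGCS1 alone was called, with a median of -0.46.

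A further comparison set the 4 2D tags with at least 20 radial glia (2DMonoVehic1, 2DProto2Fjo1, 2DProto2Fjo2 and 2DProto4Nic2) against the 13 3D tags with as many. It shares 7 tags with the comparison of 2DMono and 3DMono, and the 2D tags came from 3 arrangements. The 2D tags were Vehic (2DMonoVehic1) or had no treatment in the name, while the 3D tags also included AcCoc, AcMor and AcDop tags. The fit had no term for treatment, and the part of treatment in these differences was not tested. Of 9914 genes 880 passed (8.88%), 441 higher in 2D (4.45%) and 439 lower (4.43%).

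The genes below were lower in each of the 4 2D tags than in each of the 13 3D tags. MOXD1 was at 22.1, 13.0, 1.52 and 35.4 CPM in 2D and 457 ± 195 CPM in 3D (SD, n = 13, from 97.4 to 792; log2 -4.57, SE 0.62, adjusted p = 0.000121). TNC was at 93.4, 71.0, 59.4 and 43.8 CPM against 405 ± 127 CPM (from 246 to 658; log2 -2.56, SE 0.31, adjusted p = 1.52e-05). MEIS1, a homeobox gene, was lower as well, at 15.8, 20.3, 7.59 and 52.4 CPM against 246 ± 65.1 CPM (from 157 to 353; log2 -3.25, SE 0.37, adjusted p = 1.05e-05). Smaller 2D tags outside this fit did not all share these low levels. In the 2DProto3Wu tag with at least 5 radial glia MOXD1 was at 202 CPM, and in the 8 such 2DCocu tags TNC ran from 56.2 to 581 CPM and MEIS1 from 0 to 309 CPM, all reaching into the range of the 3D tags.

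Of 20 immediate early genes 10 were tested, 8 were lower in 2D and 0 higher, with a median of -1.81 beside 0.03 over all genes. FOS was at 36.3, 40.2, 30.4 and 10.7 CPM in 2D and 175 ± 57.0 CPM in 3D (from 110 to 279; log2 -2.57, SE 0.34, adjusted p = 5.89e-05). EGR1 was at 58.4, 58.1, 117 and 16.4 CPM against 414 ± 136 CPM (from 214 to 605; log2 -2.71, SE 0.40, adjusted p = 0.000171). The series text gives papain for 3D cultures and no source used here gives the method for 2D ones, so that culture format and dissociation cannot be told apart. The median share of mitochondrial counts in radial glia was 3.36% to 6.61% in the 3 2D arrangements of this comparison and 0.734% to 2.91% in the 3D ones, and its part was not tested. Of 16 cholesterol genes 6 were lower and 0 higher, with a median of -0.80. HMGCS1, an early enzyme of the pathway, was at 161, 177, 204 and 154 CPM against 465 ± 129 CPM (from 258 to 680; log2 -1.37, SE 0.23, adjusted p = 0.000502).

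Among hedgehog genes PTCH1, the receptor and target of the pathway, was at 77.8, 66.5, 30.4 and 14.4 CPM in 2D and 144 ± 54.5 CPM in 3D (from 68.6 to 251, with overlap; log2 -1.56, SE 0.39, adjusted p = 0.0156), and 2 of 24 alternatives lost the call. GLI2 was lower as well (log2 -1.11, SE 0.21, adjusted p = 0.00161). It was at -0.41 in cells of at least 5 of 7 markers, where 2DProto4Nic2 was the only 2D tag with at least 20 cells. Of 9 hedgehog genes tested 1 was higher (CDON, which lost its call in 12 of 24 alternatives) and 2 lower, with a median of -0.03. The secreted WNT inhibitor gene SFRP1 was at 25.3, 41.5, 38.7 and 53.4 CPM against 232 ± 143 CPM (from 57.5 to 506; log2 -2.53, SE 0.55, adjusted p = 0.00609).

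Genes higher in all 4 2D tags included the paired basement membrane collagens COL4A5 and COL4A6. COL4A5 was at 715, 833, 879 and 1540 CPM in 2D and 299 ± 66.2 CPM in 3D (SD, n = 13, from 232 to 459; log2 1.78, SE 0.17, adjusted p = 1.77e-06). COL4A6 was at 309, 583, 530 and 1100 CPM against 92.6 ± 43.5 CPM (from 36.8 to 173; log2 2.79, SE 0.32, adjusted p = 1.63e-05). The RNA-binding protein gene RBMS1 was at 394, 169, 109 and 164 CPM against 12.6 ± 13.3 CPM (from 0 to 38.5; log2 4.29, SE 0.55, adjusted p = 8.24e-05). TGFBR2, a receptor for TGF beta, was at 71.1, 80.0, 47.1 and 24.6 CPM against 5.37 ± 6.32 CPM (from 0 to 21.3; log2 3.38, SE 0.47, adjusted p = 8.10e-05). PKIB, an inhibitor of protein kinase A, was at 127, 193, 135 and 94.1 CPM against 15.8 ± 15.9 CPM (from 4.16 to 65.0; log2 3.29, SE 0.34, adjusted p = 2.67e-06).

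Some other calls rested on 2DMonoVehic1. Without it 10 of the 54 genes called and examined in this comparison lost their call, all but JUN higher in 2D, among them COL4A1 (log2 2.45 with it and 0.86 without, adjusted p = 0.00321 and 0.145), GJA1 (2.57 and 1.03, adjusted p = 0.0137 and 0.348), BMP6 (4.22 and 1.24, adjusted p = 0.00674 and 0.471), HES1 (1.47 and 0.99, adjusted p = 0.0097 and 0.117) and OTX2 (1.75 and 0.90, adjusted p = 0.0295 and 0.334). With cells of at least 5 of 7 markers, 2DProto4Nic2 was the only 2D tag left with at least 20 cells. Changes in that fit thus cannot be told apart from the loss of the other 2D tags. The log2 there was 0.44 for PALLD, 1.10 for TPM1, -0.51 for HES1, -0.19 for COL4A1 and 4.84 for ANXA2 (4.23 in all chosen cells). COL4A1 (chr13:110148963-110307233, minus strand) and COL4A2 (chr13:110305812-110513209, plus strand) overlap at their starts. Over the lists, 9 of 26 matrix genes tested were higher and 1 lower, with a median of 0.57. Of the hem genes 4 of 8 were called higher (BMP6, RSPO3, WNT5A and WNT8B). RSPO3 and WNT8B each lost the call in 4 of 21 alternatives, with an adjusted p of 0.304 for RSPO3 without 2DProto2Fjo2, and WNT8B was at 0 in 2DProto4Nic2. The mesenchymal genes summed to 684 CPM in 2DMonoVehic1, to 49.7 CPM in 2DProto4Nic2 and to 34.6 to 112 CPM in the 3D tags. The neuronal genes summed to 1470 to 2480 CPM in 2D and 1510 to 2180 CPM in 3D, with overlap.

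Radial glia of the 2 treated 2D arrangements differed in matrix genes. AcMor and Vehic tags with at least 5 radial glia were compared, 4 from 2DCocu (33 cells) and 4 from 2DMono (44 cells), and 88 of 4759 genes passed (1.85%), 26 higher in 2DCocu (0.546%) and 62 lower (1.3%). Of 25 matrix genes tested 6 were lower (COL1A1, COL4A1, COL4A2, COL4A5, ITGB5 and SPARC) and 0 higher, with a median of -1.09 beside 0.02 over all genes. COL4A5 lost its call in 8 of 15 alternatives, ITGB5 in 7 of 15 and SPARC in 5 of 13.

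COL4A1 was at 37.7, 58.4, 42.8 and 64.6 CPM in 2DCocu and 294, 1100, 431 and 603 CPM in 2DMono, without overlap (log2 -3.62, SE 0.49, adjusted p = 0.00125). COL4A2 was at 56.5, 84.4, 74.0 and 194 against 712, 1480, 583 and 1130 CPM (log2 -3.38, SE 0.51, adjusted p = 0.00259). CALD1 (caldesmon, chr7:134744252-134970728, plus strand), which binds actin and myosin, was at 9.42, 170, 144 and 74.1 against 1980, 3510, 1730 and 1080 CPM (log2 -4.30, SE 0.60, adjusted p = 0.00256). These genes and FBXO32, a ubiquitin ligase gene at 0 in 3 of 4 2DCocu tags and at 102 to 399 CPM in 2DMono (log2 -5.80, SE 0.90, adjusted p = 0.00328), were called in 14 of 15 alternatives. The exception was the fit of Vehic tags alone, with 2 tags a group, where their adjusted p lay between 0.0705 and 0.353.

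TPM1, a tropomyosin gene, was at 47.1, 162, 323 and 86.1 CPM in 2DCocu against 1280, 1840, 1530 and 433 CPM (log2 -3.09, SE 0.55, adjusted p = 0.0118), and PALLD at 289, 780, 1320 and 663 against 2440, 4270, 2810 and 2690 CPM (log2 -2.14, SE 0.39, adjusted p = 0.00917). Both lost their call in 3 of 15 alternatives. COL1A1 was at 0, 64.9, 144 and 59.4 CPM against 374, 1260, 528 and 646 CPM (log2 -3.44, SE 0.58, adjusted p = 0.00917), and it lost its call in 2 of 15 alternatives (0.0576 without 2DCocuVehic2 and 0.188 with Vehic tags alone). In the other cells of the arrangements COL4A1 was at 196 CPM in 2DCocu and 263 CPM in 2DMono, and COL1A1 at 561 and 744 CPM. The 10 mesenchymal genes summed to 56.4 to 212 CPM in 2DCocu and 455 to 1380 CPM in 2DMono, with LUM, PRRX1, FOXC1 and COL6A3 at 0 in all 4 2DCocu tags. A floor of 3 counts in a single one of these tags is 19.5 to 56.5 CPM. Over all chosen 2D cells those genes were at 0.805 to 12.2 CPM, below it. The part of the mesenchymal genes in these differences was not tested.

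**Figure D4:**
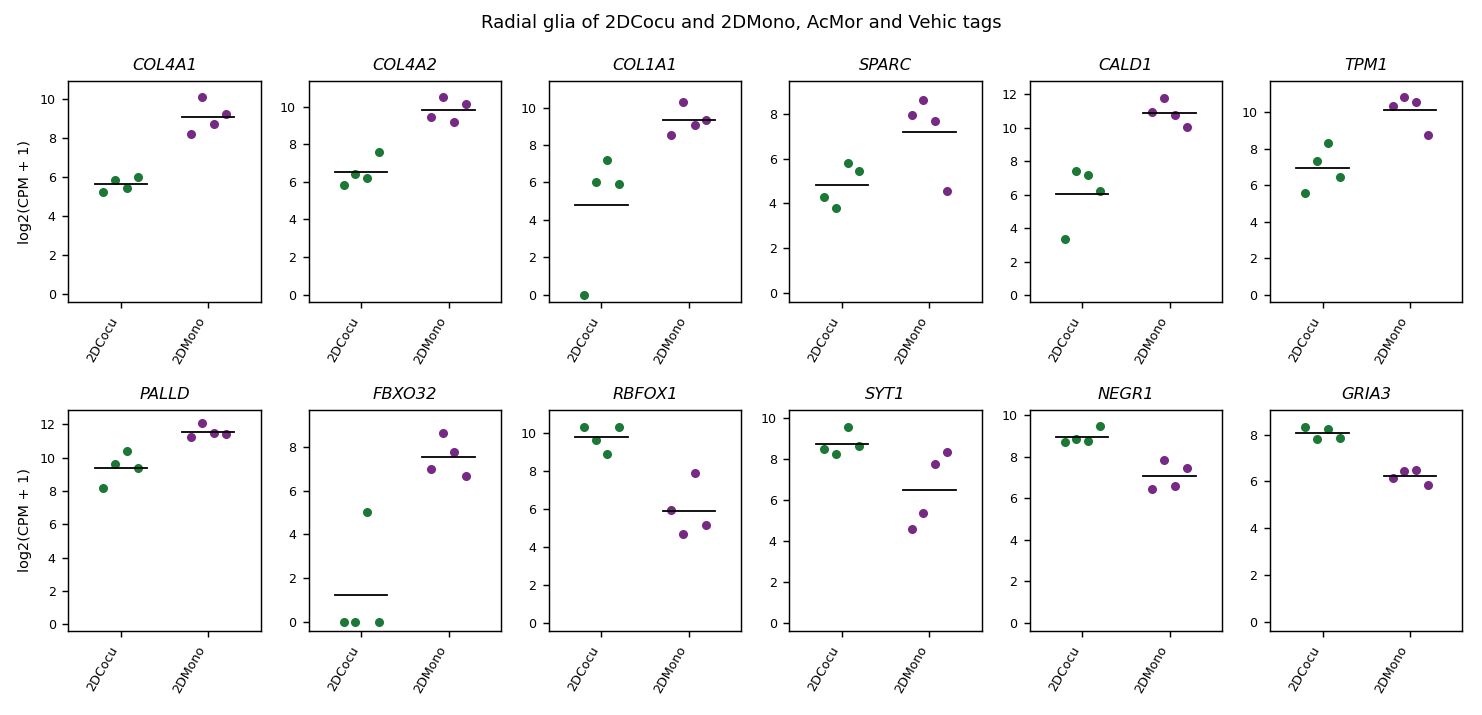
Levels in radial glia of 2DCocu and 2DMono tags with at least 5 such cells, on an axis of log2(CPM + 1), with 1 point per tag and a short line at the mean of these log values. COL4A1, COL4A2 and CALD1 lie higher in the 2DMono tags, and RBFOX1 lies higher in the 2DCocu tags.

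RBFOX1, SYT1 and GRIA3 were among the genes higher in 2DCocu. RBFOX1, a neuronal splicing factor, was at 1280, 798, 483 and 1300 CPM against 62.2, 24.6, 237 and 35.1 CPM (log2 3.40, SE 0.70, adjusted p = 0.0305), and it lost its call in 6 of 15 alternatives. SYT1, a calcium sensor of synaptic vesicles, was at 361, 309, 759 and 404 against 23.2, 40.9, 215 and 327 CPM (log2 2.19, SE 0.45, adjusted p = 0.0182), with 1 2DMono tag above 1 2DCocu tag, and lost its call in 7 of 15. The glutamate receptor gene GRIA3 was at 321, 224, 304 and 231 against 69.3, 85.3, 88.5 and 56.9 CPM (log2 1.65, SE 0.40, adjusted p = 0.0402), but was called in 3 of 15 alternatives. SYT1 was the 1 neuronal gene called of 6 tested, with a list median of 0.36. Summed, with MAP2 the largest part over all chosen cells, the 11 neuronal genes stood at 1790 to 2030 CPM in 2DCocu and 1120 to 2820 CPM in 2DMono. These ranges overlapped. Their part in the higher genes was not tested.

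GLI3 (log2 0.71, SE 0.36, adjusted p = 0.383) and VIM (log2 0.19, SE 0.53, adjusted p = 0.924) did not pass between 2DCocu and 2DMono, and GLI3 stood at 953, 649, 322 and 724 against 438, 195, 428 and 376 CPM. The number of genes called moved with single tags. It was 13 without 2DCocuAcMor1, 17 without 2DCocuVehic2, 22 without 2DMonoVehic1, 25 without 2DMonoAcMor2, 29 without 2DCocuAcMor4 and 54 without 2DMonoAcMor1. Of the 24 genes called and examined, 18 lost their call without 2DCocuAcMor1 or without 2DCocuVehic2, 16 without 2DMonoVehic1, 15 without 2DCocuAcMor4 or without 2DMonoAcMor2, 11 without 2DMonoAcMor1, 7 without 2DMonoVehic2 and 6 without 2DCocuVehic1.

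**Figure D5:**
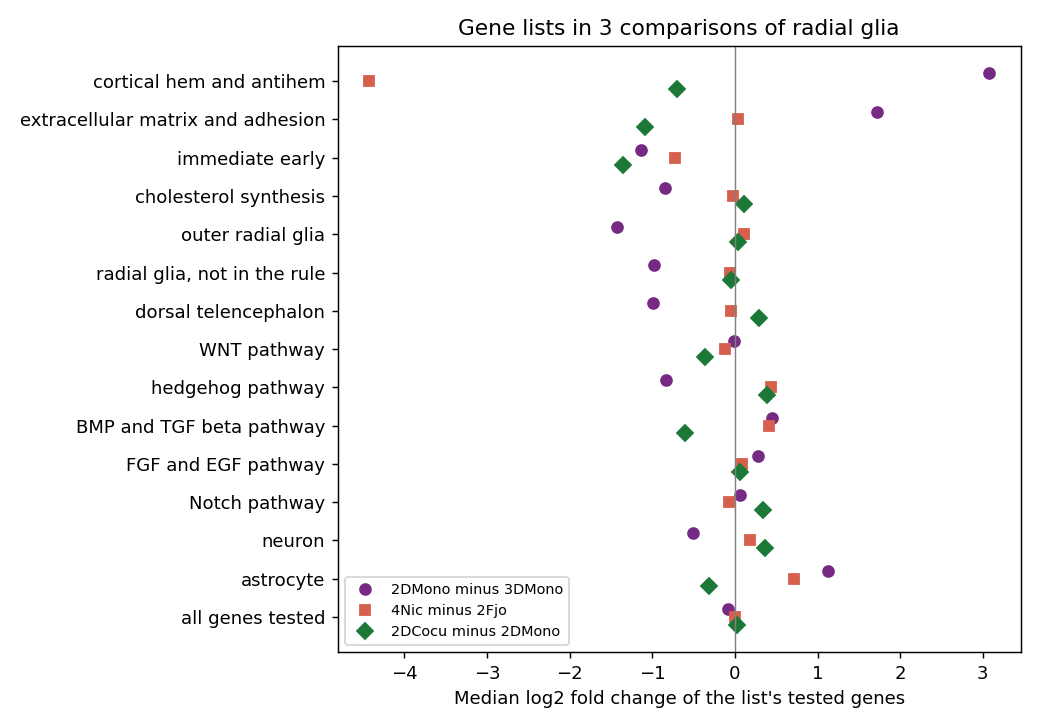
Median log2 difference of each gene list's tested genes in 3 comparisons of radial glia (2DMono minus 3DMono with tags of at least 5 cells, 2DProto4Nic minus 2DProto2Fjo, and 2DCocu minus 2DMono), with 1 marker per comparison and a vertical line at 0. Hem genes lie at 3.08 in the first and -4.43 in the second, and matrix genes at 1.72 in the first and -1.09 in the third, which shares tags with the first.

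The treatments named in the tags gave almost no calls in radial glia at this number of cells. In 2DCocu, with tags of at least 5 cells, AcCoc (4 tags) against Vehic (2 tags) gave 0 of 3373 genes with edgeR and 0 with DESeq2, and 103 genes had an unadjusted p below 0.05. AcMor (2 tags) against the same Vehic tags gave 0 of 3373 with both tools, with 104 genes below an unadjusted 0.05. In 2DMono, AcMor (2 tags) against Vehic (2 tags) gave 0 of 3010 with both tools and 108 genes at an unadjusted p below 0.05. AcDop, with 1 tag against the same 2 Vehic tags, gave 1 of 3010 (0.0332%) with edgeR and 0 with DESeq2. That gene was LRP2, an endocytic receptor gene named here after its value was seen, at 821 CPM in 2DMonoAcDop2 and 56.1 ± 14.6 CPM in the Vehic tags (n = 2; log2 3.74, adjusted p = 0.027). The AcDop arm is 1 tag, whose spread was taken from the other tags, and the count was 25 without 2DMonoVehic1 and 5 without 2DMonoVehic2. In 2DMono the AcMor count was 54 without 2DMonoAcMor1 and 8 without 2DMonoVehic1, and in 2DCocu the AcCoc count was 1 without 2DCocuVehic2.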

How the data were processed

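The data were a matrix of expected counts per gene and cell as deposited by the authors, that is, estimated counts that need not be whole. The submitters' processing notes name hg38, Salmon 1.7.0, alevin and Seurat 4.1.1. Neither the annotation nor the use of strand is given in the sources used here. Coordinates come from GENCODE v29 on hg38, matched by symbol. Counts of the chosen cells were summed per culture tag and rounded to whole numbers. The tests used edgeR 4.0.16 under R 4.3.3 with limma 3.58.1: filterByExpr for low counts, TMM factors, robust glmQLFit and glmQLFTest, Benjamini-Hochberg adjustment over all genes tested and a call at 0.05. DESeq2 1.42.0 was an alternative. The steps were tested on simulated data. Shares per tag were compared with exact permutation tests (Python 3.11.15). A floor of 3 counts is given beside some counts of 0. In single tags with at least 5 radial glia it is 16.6 to 56.5 CPM for 2DCocu and 4.74 to 36.6 CPM for 2DMono. A 0 in such a tag does not exclude levels up to there. Intervals and floors cover counting error only.

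The members and the gene lists were chosen with earlier results of these data known. Tags of at least 20 members were planned for all gene tests. Only 4 2D tags had as many, so a minimum of 15 (2DProto4Nic against 2DProto2Fjo, standing for the comparison of 2D protocols) or 5 members (2DCocu, 2DMono and treatments) was set after the numbers of members were seen, and the comparison of all 2D with all 3D tags was added then too. 2DProto3Wu, with 8 members, entered no gene test. Doublets were kept, and leaving them out was an alternative. Named genes were those called in the lists, up to 4 per list that did not pass, and, of genes called with groups that did not overlap and at least 20 CPM in the higher group, the 12 largest rises and falls. Of all genes tested, groups did not overlap in 51.8% for 2DProto4Nic against 2DProto2Fjo and 53.5% for 2DMono against 3DMono in the 20-cell fit. The shares were 8.51% for 2DCocu against 2DMono and 2.74% for all 2D against all 3D tags. IPCEF1 was added because it overlaps OPRM1. A few genes of the lists are not reported here and were left out of the list counts and sums.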

Additional observations from a re-analysis of the deposited data

Results flagged for a closer look

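Each of 157 groups of 4 to 10 tags held the levels of a gene named in the text or the shares of radial glia. In 17 of them (10.8%), all of gene levels, the highest or lowest tag lay far from the nearest other by Dixon's test at the 95% level. Chance sets apart about 1 in 20 groups, and the genes of 1 tag are not independent.

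Most of these values came from 2DMonoVehic1 among the 4 2D tags with at least 20 radial glia, the only one of 2DMono. In it the actin-binding genes TPM1 and PALLD were at 1530 CPM (93.9 to 194 in the others) and 2810 CPM (555 to 870). The matrix genes COL4A1, COL4A2, COL26A1 and FBN2 were at 431 CPM (36.4 to 82.0), 583 CPM (127 to 169), 487 CPM (29.9 to 72.1) and 852 CPM (192 to 237), and the collagen-modifying enzyme gene P3H2 was at 236 CPM (59.8 to 76.6). BMP6 was at 364 CPM (3.21 to 29.9), OTX2 at 113 CPM (29.1 to 34.7), GJA1 at 259 CPM (28.6 to 46.9) and ADAM19 at 309 CPM (22.1 to 36.7). In the same set CACNG5 was at 398 CPM in 2DProto4Nic2 (17.4 to 25.8 in the others).

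Other tags stood apart within 1 arrangement. In 2DMono, THBS1 was at 938 CPM in 2DMonoAcMor2 (17.3 to 75.0). In 3DMono, TNC was at 585 CPM in 3DMonoAcMor1 (292 to 398). Among AcMor and Vehic tags, GNAO1 was at 171 CPM in 2DMonoVehic2 (36.6 to 58.4), NEGR1 at 726 CPM in 2DCocuVehic2 (420 to 468) and FBXO32 at 31.2 CPM in 2DCocuVehic1, with 0 in the other 3.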

How the results depend on the processing

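Of the results named by comparison, 121 values under the alternatives were labelled alike, 25 moved, 7 reversed and 6 lost their call. For the shares, alike means that direction and call were kept. For the gene comparisons it means only that the number of genes called stayed close to that of the main fit. Which genes were called, and in which direction, did not enter that label. Of single genes 2178 values were alike, 235 lost the call and 2 reversed. Those were HES1 (-0.51) and COL4A1 (-0.19) in all 2D against all 3D tags, with cells of at least 5 of 7 markers. That setting left 2DProto4Nic2 as the only 2D tag. The cause was not tested in any of these.

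The lower share in 2DMono than in 3DMono held its direction (-4.86 to -3.67 points leaving out 1 tag). With the replicate number as a block, at the same -4.26 points, the sign-flipping test gave an adjusted p of 0.107. This was the smallest that it could give here, so it could not decide the question. The share in AcCoc against Vehic turned to -0.845 points at 3 markers or more, -0.00698 at 5 and -0.0174 with cells thinned, and was 0.178 to 0.407 leaving out 1 tag. The share in AcMor against Vehic turned to -0.564 at 3 markers and -0.0558 at 5, and was -0.0477 to 0.244 leaving out 1 tag. The share in 2DCocu against 2DMono was -0.817 to -0.377 leaving out 1 tag.

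Genes called in 2DMono against 3DMono numbered 660 with DESeq2, 2013 with tags of at least 5 cells and 656 to 1351 leaving out 1 tag. In all 2D against all 3D tags they were 542 with at least 5 of 7 markers and 694 to 903 leaving out 1 tag. In 2DProto4Nic against 2DProto2Fjo they were 482 with DESeq2 and 616 to 1171 leaving out 1 tag. In 2DCocu against 2DMono they were 220 with no filter on low counts, 0 with Vehic tags alone and 13 to 89 leaving out 1 tag. Without the filter the treatments gave 5 (AcCoc, 2DCocu), 3 (AcMor, 2DCocu), 17 (AcDop, 2DMono) and 6 (AcMor, 2DMono). AcDop gave 0 with DESeq2. Leaving out 1 tag gave 0 to 1, 0 to 0, 5 to 25 and 0 to 54 for these 4.

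The replicate numbers did not pair the tags in 2DCocu (same-numbered tags correlated from -0.442 to 0.142, 12 pairs) or in 2DMono (-0.0871 to 0.31, 6 pairs). They did not between 2DMono and 3DMono either (-0.315 to 0.365, 18 pairs). Within 3DMono every same-numbered pair was above 0.1 (0.108 to 0.326, 6 pairs). In 2DMono and 3DMono, with 2 tags a treatment, each value recurs in another same-numbered pair. Pairs with different numbers hold the same values with the sign reversed, so these pairs are not independent. The replicate block gave 13 calls for AcDop and 4 for AcMor in 2DMono and moved no other count of calls by over 1.5 times. Cells of at least 5 of 7 markers were too few for the gene fits other than all 2D against all 3D tags. There 2DProto4Nic2 was the only 2D tag left. The numbers of radial glia per tag, 1 to 51, limit all of these comparisons.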
